A study of Homo sapiens with 3 samples.

Results

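CpG-rich promoter peaks of estrogen-related receptor gamma (ERRγ, gene ESRRG) were taken as the peaks of the deposited list whose centre lay at most 1 kb from a transcription start site (TSS) and whose sequence held at least 0.03 CpG dinucleotides per base. There were 716 of them among 917 promoter peaks and 15223 peaks in all. They made up 78.1% of the promoter peaks and 4.70% of the list, covered 0.978 Mb of hg19 and were named for 713 genes, of which TOMM40 and CHASERR had 2 such peaks each, while 1 peak had no gene identifier. The other 201 promoter peaks, with fewer CpG, were the CpG-poor promoter peaks and belonged to 198 genes. Only 3 genes, among them HK1, had a peak of each kind.

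The cells were BT-474, a human breast cancer cell line with luminal features and an amplified ERBB2 gene. The ERRg_ChIP group had 2 libraries, made with a custom antibody to ERRγ, and the input group had 1 library of DNA. All libraries came from vehicle-treated cells 90 min after the medium was renewed and were read as single 50 bp reads. The deposited table was 1 merged list without a value per library, so there was no spread between replicates, no test between samples was possible, and the depth of each library is unknown here. Intervals below are 95% intervals that cover counting error only, exact (Clopper-Pearson) for shares and from order statistics for medians. The interval of a difference of medians is an exception. It joins opposite ends of the separate median intervals and is wider than a 95% interval. Beside a count of 0, the share said to be allowed is 3 counts of the total, not the bound of an exact interval. Each peak carried a score from the authors' peak calling, of which the unit is not given, and it is used only to rank peaks within the list.

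ERRγ is an orphan nuclear receptor that binds DNA as a monomer or dimer without a known natural ligand. Its element is AAGGTCA, best known in the extended form TCAAGGTCA, and with ERRα and ERRβ it is known for driving genes of mitochondrial respiration together with the PGC-1 coactivators. CpG islands are stretches in which CpG has not been lost to deamination of methylated cytosine. They lie over the start sites of most broadly expressed genes and are mostly unmethylated there, whereas CpG-poor promoters more often belong to genes with restricted expression and more often carry a TATA box.

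Promoter windows of RefSeq genes (GRCh38.p14, 250 bases before to 50 after the start) were searched on both strands for the ERR element, and the sites below are shown because they are the letters the receptor is known to read. The windows were matched to the peaks by gene identifier and not by position, so a site in a window need not lie under the hg19 peak. Of the genes with CpG-rich promoter peaks, 590 had a window, and the extended element TCAAGGTCA occurred in 7 of their 850 windows (0.824%), against 3 of 240 windows of the genes with CpG-poor promoter peaks (1.25%) and 0.353% of all 35116 windows. The 6 genes with the highest-scoring CpG-rich peaks that held it, and 2 with CpG-poor peaks, are shown with the extended element in capitals, each on the strand on which it reads TCAAGGTCA.

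PNPLA4, CpG-rich, chrX:7927943-7927971 (minus strand): tgctacctgcTCAAGGTCAcacagcctaa
TMEM161B, CpG-rich, chr5:88268979-88269007 (minus strand): ctccgctctcTCAAGGTCAgcaccgcccc
ZNF527, CpG-rich, chr19:37370902-37370930 (plus strand): acacagcagcTCAAGGTCActggagagcc
LINC00662, CpG-rich, chr19:27793961-27793989 (minus strand): aggccctctcTCAAGGTCAccacctccac
MSI2, CpG-rich, chr17:57255643-57255671 (minus strand): gttataggagTCAAGGTCAcatgattgag
CCDC8, CpG-rich, chr19:46413515-46413535 (minus strand): ctgcggcgcgTCAAGGTCAgc
ACP3, CpG-poor, chr3:132317190-132317218 (minus strand): aagctgttgaTCAAGGTCAcagagcatgt
TMPRSS3, CpG-poor, chr21:42389298-42389326 (plus strand): tctggaggtcTCAAGGTCAagagagaaac

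The site of PNPLA4, a lipid hydrolase, began 237 bases before the start, and its peak scored 2625 with its centre at -31 bp (negative positions lie upstream). TMEM161B scored 1018 with the site at -152, and ZNF527, a zinc finger gene, scored 887 with the site at -187. LINC00662 scored 313 with the site at -39, MSI2, an RNA-binding protein gene, scored 222 with the site at -198, and CCDC8 scored 163 with the site 39 bases after the start. The peaks of MSI2 and CCDC8 were centred at -794 and -919 bp, so their sites lay outside the centre of the peak. Among the CpG-poor peaks, that of ACP3, the prostatic acid phosphatase gene, scored 540 and that of TMPRSS3, a serine protease gene, scored 156.

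The shorter core AAGGTCA was more frequent. It lay in 67 of 850 windows of genes with CpG-rich promoter peaks, 63 genes in all. The next sites, chosen after their values were seen, are from genes with high scores and from subunits of the respiratory chain, with the core in capitals. Only genes with a core are shown. SH2B1, PPIA, ESRRA, ATP5F1B and ATP5MC3, which scored 3100 or more, had none found, for lack of a core or of a window.

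CCDC174, chr3:14651588-14651614 (minus strand): gctaactgctAAGGTCAtcttgagggc
CCDC174, chr3:14651623-14651649 (minus strand): tcattttggaAAGGTCAtagagtgcgg
CCDC174, chr3:14651666-14651692 (minus strand): ccatcttgagAAGGTCAgagtgtggtg
LINC00938, chr12:45728053-45728079 (minus strand): tgcctaacccAAGGTCAcagggtagta
HIGD2A, chr5:176388749-176388775 (minus strand): cctcccggtgAAGGTCAtgaaaggggc
ITFG2, chr12:2812419-2812445 (plus strand): acaaaggaaaAAGGTCAaggttattag
ZC2HC1C, chr14:75069489-75069515 (minus strand): cggtcagcccAAGGTCActtgacccag
MRPL34, chr19:17292390-17292416 (plus strand): gcttctgtacAAGGTCAtcttccgtga
ATP5F1A, chr18:46098301-46098327 (plus strand): agccgcaaagAAGGTCAagacagccgg
COX7A2, chr6:75243955-75243981 (minus strand): gaacatcgaaAAGGTCAggaacgagat
NDUFS7, chr19:1383726-1383752 (minus strand): ccgaggcggaAAGGTCAtcggagtgcg

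CCDC174, whose peak had the highest score of the promoter peaks (3227), held 3 cores at -164, -129 and -86 from its start, all read on the strand opposite to the gene. LINC00938 scored 3222 with a core at -148. HIGD2A, an assembly factor of cytochrome c oxidase, ITFG2, ZC2HC1C and the mitochondrial ribosomal gene MRPL34 all scored 3100. Their cores lay 8 bases after the start in HIGD2A and at -239, -142 and -173 in ITFG2, ZC2HC1C and MRPL34. ATP5F1A, the α subunit of ATP synthase, scored 1762 with a core at -21, COX7A2 of cytochrome c oxidase scored 1498 with a core at -170, and NDUFS7 of complex I scored 998 with a core at -171. The 73 cores in the windows of CpG-rich promoter peaks had a median position of -123, and 11 of them lay after the start.

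Base composition affects how often any motif occurs, so shares were also taken over windows with at least 0.03 CpG per base. The ERR core lay in 60 of 758 CpG-rich windows of genes with CpG-rich promoter peaks (7.92%, interval 6.09 to 10.1) and in 22 of 240 windows of genes with CpG-poor promoter peaks (9.17%, interval 5.83 to 13.5). Of those 240, 107 were CpG-rich themselves, and 3 of the 107 held the core (2.80%, interval 0.582 to 7.98). It lay in 295 of 15136 CpG-rich windows of protein-coding genes without a promoter peak (1.95%, interval 1.73 to 2.18), and in 3.92% of all windows whatever their composition. Among CpG-rich windows the interval for genes with CpG-rich peaks thus lay above that for genes without a promoter peak, and it overlapped the wide interval for genes with CpG-poor peaks. In more than 9 of 10 windows of genes with a peak, these letters were not found within the 300 bases searched.

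Motifs of other factors were counted in the same way, and here the windows of genes with CpG-poor peaks were taken whatever their own CpG content. The NRF1 motif, the site of a regulator of mitochondrial genes, lay in 14.6% of the CpG-rich windows of genes with CpG-rich peaks, 4.58% of the windows of genes with CpG-poor peaks and 10.04% of the CpG-rich windows of genes without a promoter peak. The ETS motif CCGGAAGT lay in 11.1%, 2.08% and 7.06% of the same windows, and the YY1 motif ATGGCGG in 13.6%, 5.42% and 9.18%. The TATA box TATAAA was less frequent at CpG-rich peaks, with 3.56% in the first class, 12.1% in the second and 4.68% in the last. In the 107 CpG-rich windows of genes with CpG-poor peaks the gap to the first class was smaller, with NRF1 at 10.3%, ETS at 3.74%, YY1 at 9.35% and the TATA box at 6.54%. The AP-1 motif TGACTCA had shares of 2.37%, 7.50% and 2.40%. The GC box GGGCGG lay in 71.6%, 37.1% and 74.1%, and CCAAT in 35.5%, 40% and 33.3%. The palindromic estrogen response element (inverted GGTCA repeats with a spacer) was found in 0 of the 850 windows, which allows a share of up to 0.353%. It was rare everywhere, with 0 of 240 windows of genes with CpG-poor peaks and 0.0198% of the CpG-rich windows without a peak. Of all 35116 windows 0.0570% held it, so the count of 0 does not set the members apart. The cyclic AMP element TGACGTCA lay in 2.64% of the CpG-rich windows of genes with a CpG-rich peak, 3.33% of the windows of genes with a CpG-poor peak and 2.91% of the CpG-rich windows without a peak. In the 107 CpG-rich windows of genes with CpG-poor peaks the GC box lay in 67.3% and CCAAT in 43.0%. There AP-1 lay in 3.74% and the cyclic AMP element in 6.54%. The core AAGGTCA is part of the extended element, and its GGTCA is also the repeat unit of the estrogen response element.

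**Figure D1:**
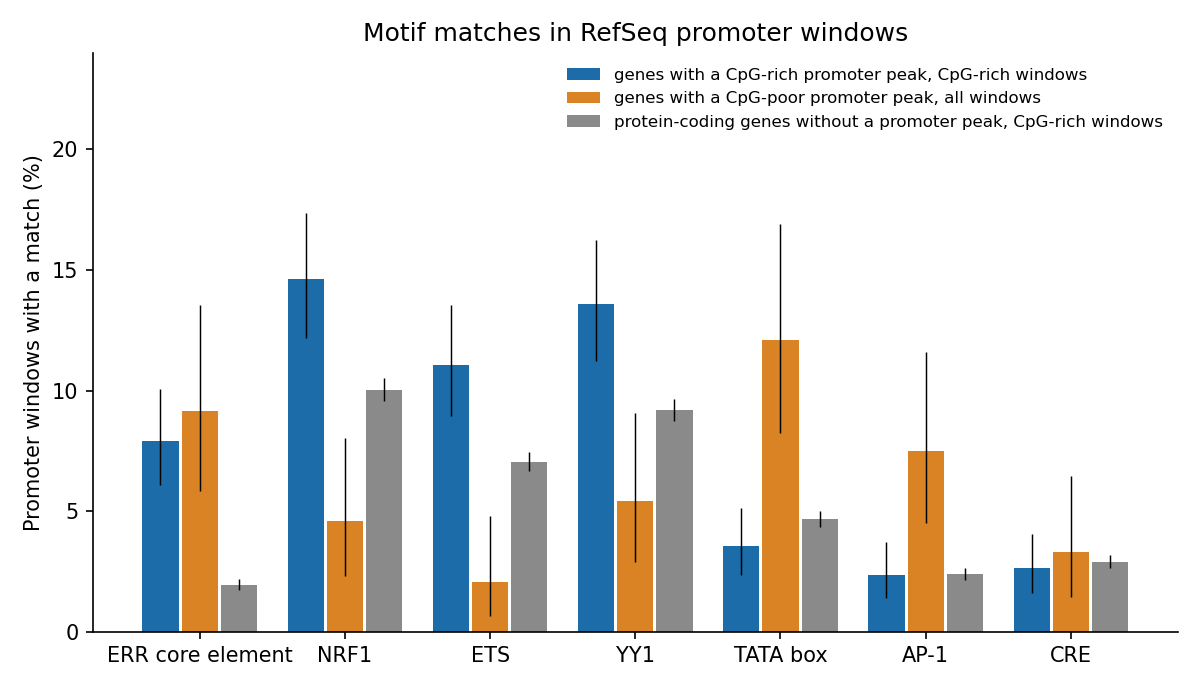
Share of RefSeq promoter windows (%, vertical axis) with a match to each motif, for CpG-rich windows of genes with a CpG-rich promoter peak (left bars), all windows of genes with a CpG-poor promoter peak, whatever their CpG content (middle) and CpG-rich windows of protein-coding genes without a promoter peak (right). Lines are exact 95% intervals. The ERR core stands at 7.92% and 9.17% in the classes with a peak and at 1.95% in the class without, and the TATA box at 3.56%, 12.1% and 4.68%.

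The ERR core was more frequent among the members with the highest scores. Members with a core in a window had a median score of 246 (n = 63, quartiles 113 and 922), and 21 of them (33.3%) were in the upper 10% of the whole list by score, where 10 percent of all peaks lie. Members with a window but no core had a median of 161 (n = 529, quartiles 85.2 and 386), and 90 (17.01%) were in the upper 10%. Over 4 groups of 148 members by score, from low to high, 11, 13, 13 and 26 had a core. The share of the highest group, with scores of 447 to 3227, was 17.6% (interval 11.8 to 24.7), which overlaps the interval of the group below it, 8.78% (interval 4.76 to 14.6). For NRF1 the same counts were 28, 30, 24 and 22, for ETS 20, 22, 16 and 19, and for YY1 22, 22, 26 and 23, so none of these counts was ordered by the score. Among CpG-poor promoter peaks whose gene had a window the median was 185 with a core (n = 23 peaks) and 133 without (n = 127 peaks).

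CpG-rich promoter peaks had a slightly higher median score than CpG-poor ones, and the distributions overlapped almost fully. The score ran from 50.02 to 3227 in CpG-rich peaks, with a median of 171 (interval 151 to 188) and quartiles of 86.4 and 450. It ran from 50.56 to 3100 in CpG-poor peaks, with a median of 138 (interval 121 to 177) and quartiles of 82.1 and 286. The difference of the medians, 33.3, had an interval of -25.6 to 66.8, and the CpG-rich peak was the higher in 53.9% of all pairs of a CpG-rich and a CpG-poor peak. The upper 10% of the list held 139 CpG-rich promoter peaks (19.4%, interval 16.6 to 22.5) and 28 CpG-poor ones (13.9%, interval 9.46 to 19.5). The lower end was alike: 32.3% of CpG-rich and 33.3% of CpG-poor promoter peaks scored under 100. Both kinds stood above the rest of the list, since all peaks other than the CpG-rich promoter peaks had a median of 105.

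CpG content itself did not order the scores within the CpG-rich peaks. From the lowest to the highest CpG class (0.03 to 0.04, 0.04 to 0.05, 0.05 to 0.06, 0.06 to 0.07 and 0.07 or more CpG per base, with 121, 162, 162, 126 and 145 peaks) the median score was 198, 184, 190, 126 and 148. The share in the upper 10% was 19.01%, 23.5%, 16.7%, 17.5% and 20%. Spearman's rho across the 716 peaks was -0.0696 between score and CpG content, -0.0631 between score and GC fraction and 0.0420 between score and conservation. Between score and width it was 0.536, and it was 0.493 across the 201 CpG-poor promoter peaks. These correlations describe peaks of 1 list that share their libraries and their peak calling. The reason for the correlation of score with width was not tested.

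**Figure D2:**
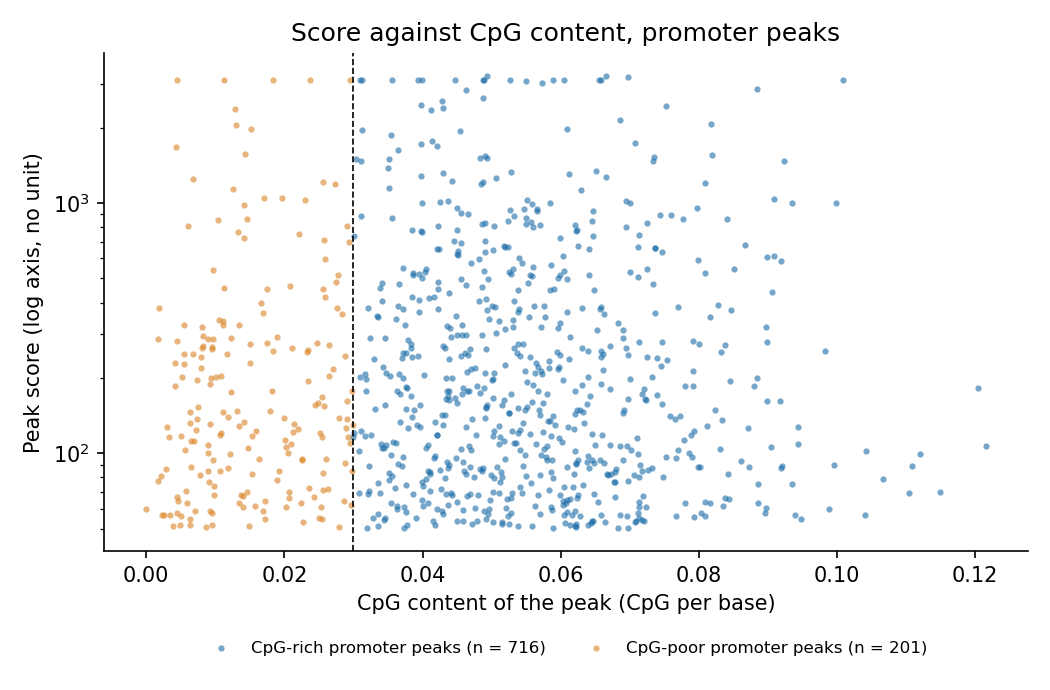
Peak score (vertical, log axis, no unit) against CpG content (CpG per base, horizontal) for the 716 CpG-rich and 201 CpG-poor promoter peaks; the dashed line is the minimum of 0.03. Scores from about 50 to 3100 occur on both sides, and the row of points at the top are the peaks that share the score 3100.

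In width the kinds did not differ beyond the intervals of their medians. The median width was 1257 bp in CpG-rich peaks (interval 1225 to 1301) and 1260 bp in CpG-poor peaks (interval 1200 to 1310). The widest CpG-rich peak was 3784 bp. The widest CpG-poor peak was 9029 bp and lay over ATP1B1, the gene of a subunit of the sodium pump. Within the CpG-rich peaks the width fell with CpG content, with medians of 1427, 1320, 1243, 1227 and 1136 bp over the same classes.

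The rule fixed a higher CpG content, so GC content is a description that largely follows from it. The median GC fraction was 0.556 in CpG-rich peaks and 0.452 in CpG-poor peaks, and 0.401 in all peaks that were not CpG-rich promoter peaks. The ratio of observed CpG to that expected from the GC fraction had a median of 0.708 in CpG-rich and 0.246 in CpG-poor promoter peaks. A ratio of at least 0.6, a usual criterion for a CpG island, was met by 577 of 716 CpG-rich peaks (80.6%) and 2 of 201 CpG-poor peaks (0.995%). The authors' annotation named a CpG island for 77 CpG-rich peaks (10.8%) and 2 CpG-poor ones (0.995%). An island at a peak whose detailed annotation began with another label was not counted, so this is not a count of all islands.

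CpG content of this level was mostly a promoter property in the list. Of all 15223 peaks, 6.73 percent had at least 0.03 CpG per base, and 69.9% of those lay within 1 kb of a TSS. The other 308 had a similar median score (171 at promoters, 164 beyond 1 kb), a lower ratio of observed to expected CpG (0.708 at promoters, 0.584 beyond 1 kb) and a lower conservation score (0.12 at promoters, 0.09 beyond 1 kb). Their GC fraction was higher (0.556 at promoters, 0.572 beyond 1 kb), and a CpG island annotation was more frequent (10.8% at promoters, 18.2% beyond 1 kb). A ratio of at least 0.6, however, was met by 80.6% of the CpG-rich peaks at promoters and 45.1% of those beyond 1 kb. A promoter-TSS annotation was held by 62.6% of the CpG-rich peaks at promoters and 0% of those beyond 1 kb. Islands at peaks under another detailed label were not counted, so the island shares do not measure how common islands were. The island annotation and the ratio thus went in opposite directions, and the reason was not tested.

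Conservation was slightly higher in the CpG-rich promoter peaks, with intervals that met at 0.11. The authors' mean conservation score over a peak had a median of 0.12 (interval 0.11 to 0.13) in CpG-rich peaks and 0.10 (interval 0.08 to 0.11) in CpG-poor peaks, against 0.06 in all peaks that were not CpG-rich promoter peaks. It increased with CpG content within the CpG-rich peaks, with medians of 0.09, 0.10, 0.13, 0.14 and 0.16 over the CpG classes. The most conserved members scored low. LMO3 (0.87), KCTD1 (0.82) and ESRRG itself (0.70) are regulators of transcription, and their peaks scored 63.3, 57.7 and 51.9.

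CpG-rich peaks lay closer to the start site. The median distance of the centre was 322 bp (interval 296 to 352) in CpG-rich peaks and 509 bp (interval 422 to 552) in CpG-poor peaks, and the peak covered the start site in 560 (78.2%) and 135 (67.2%) of them. Within 500 bp lay 68.2% of the CpG-rich and 48.8% of the CpG-poor peaks, and within 100 bp 16.1% and 15.9%. The centre was downstream of the start in 379 CpG-rich peaks (52.9%) and 100 CpG-poor peaks (49.8%), so both kinds were spread almost evenly over the sides. In the classes 0 to 100, 100 to 250, 250 to 500 and 500 to 1000 bp, the median score of CpG-rich peaks was 158, 156, 208 and 147, and that of CpG-poor peaks was 248, 176, 124 and 127.

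**Figure D3:**
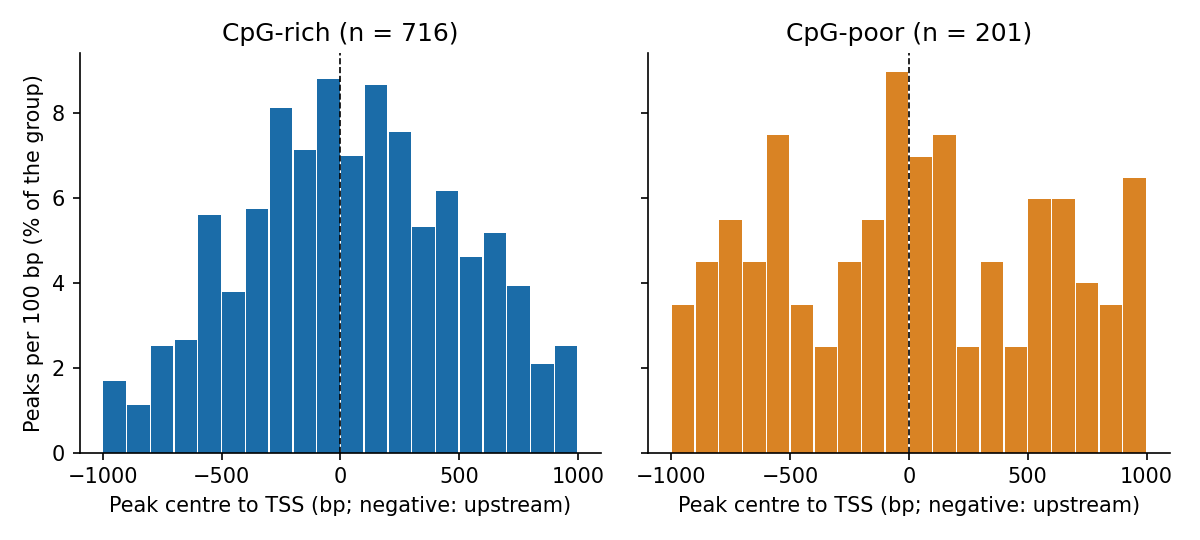
Share of peaks per 100 bp (%, vertical) by distance of the peak centre from the TSS (bp, negative is upstream), for CpG-rich (left) and CpG-poor (right) promoter peaks. The CpG-rich peaks gather within 500 bp of the start (68.2%), and the CpG-poor ones are spread over the whole kilobase on either side (48.8% within 500 bp).

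Most members were annotated to genes that code for proteins. These were 674 of the CpG-rich peaks (94.1%) and 167 of the CpG-poor peaks (83.1%). MicroRNA genes made up 2 CpG-rich peaks (0.279%), MIR3191 with a score of 3100 and MIR3677 with 69.4, and 13 CpG-poor ones (6.47%). Other short RNAs with CpG-rich peaks were RNU12 (score 771) and RNU11 (408), which are parts of the minor spliceosome, SNORD104 (372), SNAR-E (290), TERC (183), the RNA of telomerase, and the vault RNA VTRNA1-2 (116). The gene-dense chromosome 19 held 61 CpG-rich peaks (8.52%) and 4 CpG-poor peaks (1.99%), against 274 of all peaks (1.80%). Chromosome 8 held 3.63% of the CpG-rich peaks and 8.32% of all peaks.

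The highest scores belonged to genes of varied function. Above 3100 were CCDC174 (chromosome 3, 14692460 to 14693838, centre at -104 bp), LINC00938 (chromosome 12, 46120858 to 46123021, -235 bp) and SH2B1 (chromosome 16, 28873950 to 28875700, -253 bp), an adaptor of insulin and leptin signalling, with a score of 3193. A further 14 members shared a score of exactly 3100, a value that 158 peaks of the list have, so that their order cannot be told. They included PPIA (cyclophilin A), ESRRA (the gene of ERRα), the phosphatase subunit gene PPP6R3, DRC8, MSANTD4, ITFG2 and HIGD2A. Others of the 14 had roles in mitochondria or central carbon metabolism: ATP5F1B and ATP5MC3 of ATP synthase, MRPL34, and TKT, the transketolase of the pentose phosphate pathway. Among CpG-poor promoter peaks 5 scored 3100, at TAPBPL, CCNB1IP1, ATP1B1, the myoglobin gene MB and PA2G4P4.

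Most of the members with the most CpG, and the narrowest ones, scored below the median of the group, and the widest scored above it. The members with the most CpG, ARFRP1 (0.121 CpG per base), MIDN (0.1203), NXPH4 (0.115), PIM3 (0.112) and CYP4V2 (0.111), scored 107, 182, 69.8, 99.6 and 89.2. The widest members were RNF139 (3784 bp, score 245), ESRRA (3299 bp, score 3100) and COX8A (3286 bp, score 452). The narrowest, PARVB (683 bp), PNRC1 (685 bp) and TP53BP2 (693 bp), scored 119, 57.3 and 53.0. The lowest scores were those of ANKRD9 (50.02), SAP18 (50.07) and TRIM3 (50.11). Just inside the CpG minimum were VTRNA1-2 (0.03), FLVCR2 (0.030055) and RNF14 (0.030082), with scores of 116, 121 and 741. Just outside it were WDFY3-AS2 (0.029991), SIKE1 (0.029790) and ZNF175 (0.029767), with scores of 130, 177 and 84.5.

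Genes were then grouped by 18 lists of pathways and control groups, and 2 lists added after the values were seen. A CpG-rich promoter peak was named for 673 of 20037 protein-coding genes, 3.36 percent, and a CpG-poor one for 164, 0.818 percent. The shares of genes given for each list further below are to be read against these shares. The next shares are of peaks, and the share of all genes or all peaks on the lists is not given, so they have no such background. On any of the 18 lists were 129 CpG-rich peaks (18.0%) and 17 CpG-poor peaks (8.46%). Over 8 mitochondrial lists, the 2 added ones among them, there were 93 CpG-rich peaks (12.99%, interval 10.6 to 15.7) and 4 CpG-poor peaks (1.99%, interval 0.545 to 5.02). A gene description with the letters mitochondri was held by 7.26% of the CpG-rich promoter peaks, 0.498% of the CpG-poor ones and 1.04% of all peaks. The 93 had a median score of 351, and 31 of them (33.3%) were in the upper 10% of the list. The 623 CpG-rich peaks off these lists had a median of 158, and 108 of them (17.3%) were in the upper 10%.

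The respiratory chain moves electrons through complexes I to IV to oxygen, and ATP synthase (complex V) uses the resulting proton gradient. Of the 41 listed genes of complexes II to V, 23 had a CpG-rich promoter peak (56.1%, interval 39.7 to 71.5) and 1 a CpG-poor one. The median score of the 23 was 607, and 12 were in the upper 10%. The counts differed between the complexes. Cytochrome c oxidase (complex IV) had 9 of 11 genes with a member peak, complex III had 6 of 9, ATP synthase had 7 of 16 and complex II had 0 of 4. The median score was 627 for complex IV, 200 for complex III and 808 for ATP synthase. The list lacked the ATP synthase subunits ATP5MJ and ATP5MK, and COXFA4 of complex IV, which was noticed after the values were seen. With the first pair ATP synthase had 9 of 18 genes at a median of 378, with COXFA4 complex IV had 10 of 12 at 702, and complexes II to V together had 26 of 44 (59.1%) at 529.

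Among the ATP synthase genes, ATP5F1B (the β subunit, hg19 chromosome 12, 57038290 to 57040738, centre at 338 bp) and ATP5MC3 (a subunit of the membrane ring, chromosome 2, 176045020 to 176047388, 187 bp) scored 3100, and ATP5F1A scored 1762. ATP5MF (808), ATP5MG (378), ATP5PO (203), ATP5MJ (143), ATP5MK (135) and ATP5F1C (121) followed. In complex IV the highest were COX7A2 (1498, centre at 313 bp), COX6C (1227, 547 bp) and COX5A (892, 489 bp), and the lowest was COX5B (267, 101 bp). COX7B had a CpG-poor peak of 0.0257 CpG per base with a score of 1210. In complex III, UQCRC2 scored 998 and CYC1, which carries the haem that passes electrons on, scored 88.5. CYCS, cytochrome c itself, scored 664. COXFA4, listed in the peak table under its older symbol NDUFA4, scored 777.

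Complex I, which takes electrons from NADH, had 15 of 37 genes with a CpG-rich promoter peak (40.5%, interval 24.8 to 57.9) and 2 with a CpG-poor one. The scores ran from 66.4 to 1963 with a median of 251. NDUFB5 had the highest score (1963), followed by NDUFS7 (998), NDUFA6 (497) and NDUFC1 (413). The CpG-poor peaks, at NDUFB4 (0.0274 CpG per base, score 484) and NDUFS4 (0.0283, score 359), were just under the minimum. On the added list of assembly factors and coenzyme Q synthesis, 15 of 60 genes had a member peak (25%) and none a CpG-poor one. Its median score was 532, with HIGD2A at 3100, the coenzyme Q gene COQ9 at 1543, and the complex I assembly factors NDUFAF5 at 1517 and NDUFAF4 at 1512.

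Enzymes of the tricarboxylic acid (TCA) cycle, with pyruvate dehydrogenase, which feed the chain with NADH, had 10 of 25 genes with a CpG-rich promoter peak (40%, interval 21.1 to 61.3) and none with a CpG-poor one. IDH3A (isocitrate dehydrogenase) scored 1212 with its centre at 777 bp, and the malate dehydrogenases MDH1, which is cytosolic, and MDH2, which is mitochondrial, scored 703 and 404. CS, citrate synthase, scored 140 and DLD 53.6. Of 19 genes of fatty acid oxidation only ACADM, the medium-chain dehydrogenase, had such a peak (196).

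Mitochondrial import and chaperones had 12 of 30 genes with a member peak (40%, interval 22.7 to 59.4), at a median score of 445. The chaperones HSPA9 (2145) and HSPD1 (1730) and the small translocase chaperones TIMM10 (1697) and TIMM8B (1632) were highest. The mitochondrial ribosome had 13 of 78 (16.7%, interval 9.18 to 26.8) and a median of 238, with MRPL34 (3100), MRPL12 (1203) and MRPL15 (828) at the top and MRPS16 at 52.0. Mitochondrial tRNA synthetases, on an added list, had 3 of 17, with scores from 51.4 to 83.1 for TARS2.

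Glycolysis had 9 of 19 genes with a CpG-rich promoter peak (47.4%, interval 24.4 to 71.1) and 2 with a CpG-poor one, at a median score of 516 for the CpG-rich ones. ALDOA scored 1270, HK1 927, PKM 863 and ENO1 804, and these enzymes span the pathway from hexokinase to pyruvate kinase. GAPDH (202), LDHA (122), PGAM1 (61.6) and PGK1 (59.5) were lower. HK1 also had a CpG-poor peak upstream, with its centre at -723 bp and a score of 203.

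**Figure D4:**
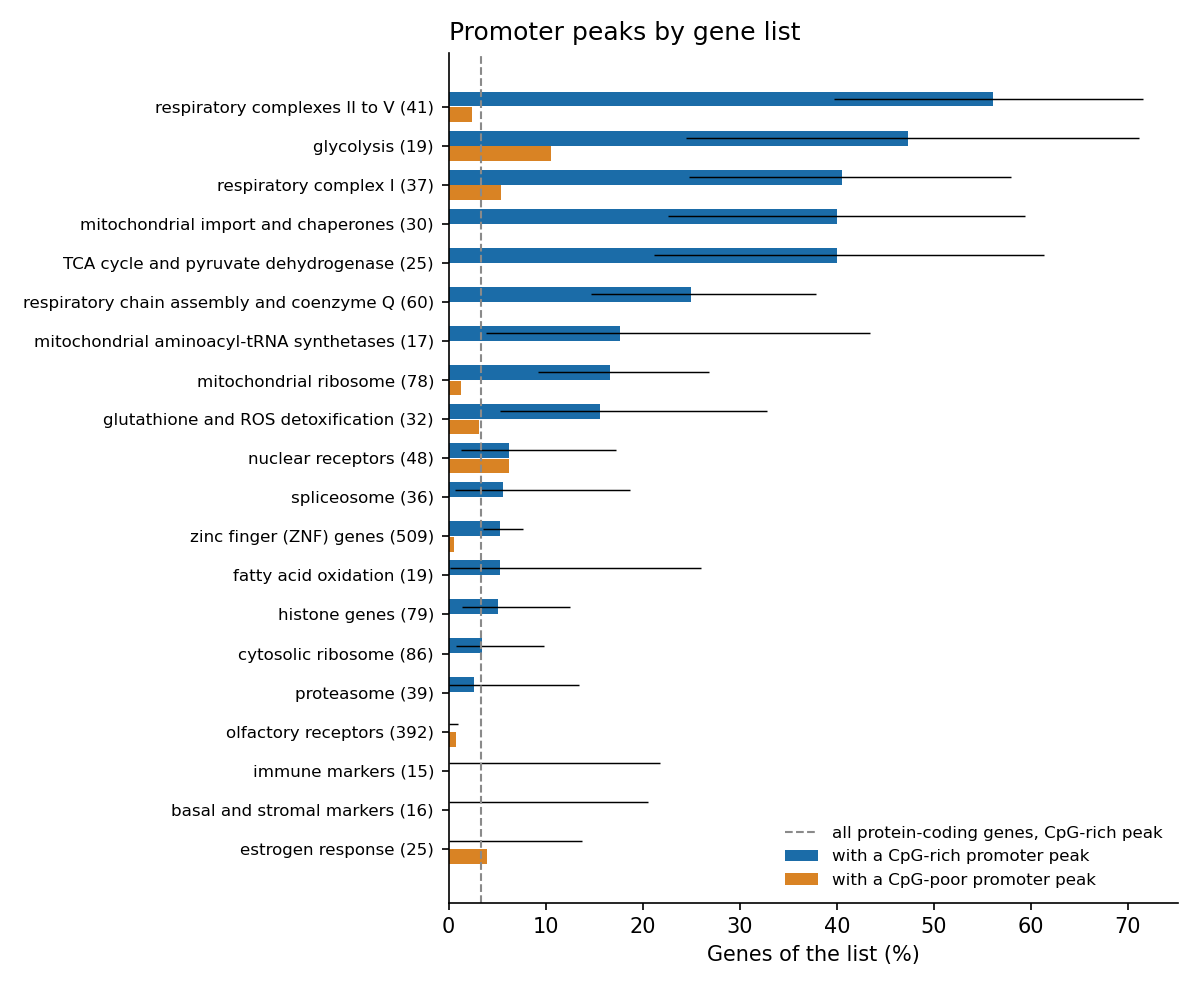
Share of the genes of each list (%, horizontal; number of genes in brackets) with a CpG-rich (upper bar, with exact 95% interval) and a CpG-poor (lower bar) promoter peak; the dashed line is the share of all protein-coding genes with a CpG-rich one, 3.36 percent. Complexes II to V (56.1%), glycolysis (47.4%) and complex I (40.5%) stand highest, and the cytosolic ribosome (3.49%) and the proteasome (2.56%) are close to the line.

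Glutathione and detoxification of reactive oxygen species (ROS), which the series title names, had 5 of 32 genes with a CpG-rich promoter peak (15.6%, interval 5.28 to 32.8) and none of these in the upper 10%. They were MGST3 (531), GSR (296), which reduces oxidised glutathione, the mitochondrial thioredoxin TXN2 (182), MGST2 (102) and the quinone reductase NQO1 (72.7). TXNRD1 had a CpG-poor peak (227). Of 48 nuclear receptors 3 had a CpG-rich peak, ESRRA (3100), NR2F6 (860) and ESRRG (51.9), and 3 a CpG-poor one, NR0B2 (453), NR1D1 (116) and NR2F2 (60.7). Of 25 estrogen response genes 0 had a CpG-rich promoter peak, which allows a share of up to 12%, and TFF1 had a CpG-poor one of 0.0277 CpG per base with a score of 517.

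Other lists of broadly expressed genes with CpG-rich promoters were near the background. The cytosolic ribosome had 3 of 86 genes with a member peak (3.49%, interval 0.725 to 9.86), RPL21 (149), RPS12 (107) and RPS14 (74.7). The spliceosome had 2 of 36, SF3A3 (81.4) and SF3B3 (53.0), and the proteasome had 1 of 39, PSMA3 (88.7). A CpG-rich RefSeq window was present for 69 of 69 cytosolic ribosome genes that had a window, 32 of 32 of the spliceosome and 31 of 34 of the proteasome, and for 33 of 33 of complexes II to V. CpG-rich windows were thus the rule on each of these lists. Few genes of the cytosolic ribosome, spliceosome and proteasome had a member peak, against 23 of 41 of complexes II to V. What sets these lists apart was not tested. Histone genes had 4 of 79 and H4C8 was the only one with a high score (1720). Basal and immune markers had 0 of 16 and 0 of 15, which allows shares of up to 18.8% and 20%. Olfactory receptors had 0 of 392 with a CpG-rich peak, which allows up to 0.765%, and 3 with a CpG-poor one. Of the genes with a window, 6 of 314 olfactory receptors, 1 of 10 immune markers and 7 of 9 basal markers had a CpG-rich one. Of the basal and immune markers, 0 had a CpG-poor promoter peak either. The reason for the counts of 0 on these lists was not tested.

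Zinc finger (ZNF) genes, many of which are repressors that stand in clusters on chromosome 19, had 27 of 509 with a CpG-rich promoter peak (5.30%, interval 3.52 to 7.62) and 3 with a CpG-poor one. The 27 had a median score of 201, and 17 of them lay on chromosome 19. The highest were ZNF768 (1478), ZNF844 (943), ZNF181 (912) and ZNF141 (894). ZNF527, with the extended element shown above, scored 887.

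**Figure D5:**
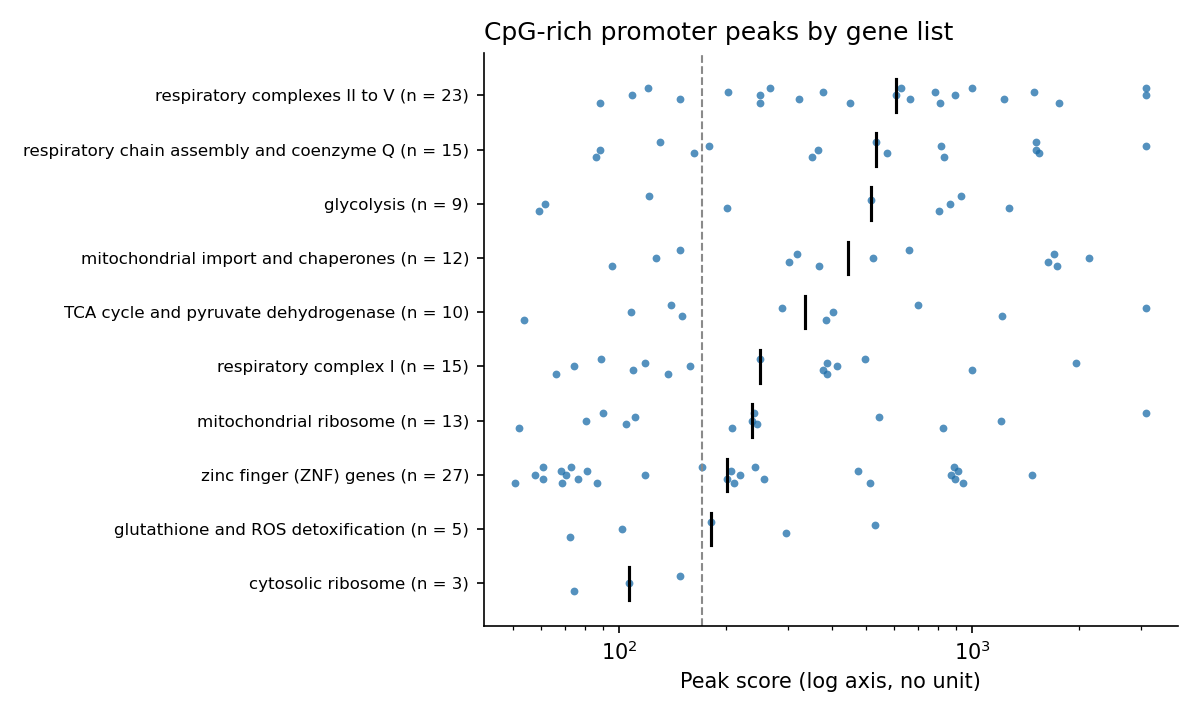
Score (horizontal, log axis, no unit) of each CpG-rich promoter peak (points) by gene list, with the median of the list (vertical bars); the dashed line is the median of all 716, 171. Complexes II to V (607), assembly and coenzyme Q (532) and glycolysis (516) have the highest medians, and the cytosolic ribosome (107) lies left of the line.

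Peaks at mitochondrial genes lay downstream of the start more often than the others. On the 8 mitochondrial lists, 72 of 93 CpG-rich peaks had their centre downstream (77.4%, interval 67.6 to 85.4) at a median position of 198 bp, against 307 of the 623 CpG-rich peaks off these lists (49.3%, interval 45.3 to 53.3) at -10 bp. In complexes II to V it was 22 of 23, with a median of 338 bp, in the mitochondrial ribosome 12 of 13 (223 bp) and in complex I 12 of 15 (189 bp). The list of assembly factors and coenzyme Q went the other way, with 7 of 15 downstream and a median of -50 bp. So did the tRNA synthetases, with 1 of 3 (-36 bp), and fatty acid oxidation, with 0 of 1 (-234 bp). Lists that are not mitochondrial varied. Glutathione and ROS detoxification had 5 of 5 peaks downstream (316 bp), glycolysis 6 of 9 (244 bp) and the cytosolic ribosome 0 of 3 (-167 bp). Of the 27 zinc finger peaks 10 were downstream, at a median of -161 bp. The mitochondrial peaks were also wider, with a median of 1541 bp against 1222 bp off these lists, and 91 of 93 covered the start site (97.8%), against 469 of 623 (75.3%). This position was compared after the values were seen.

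Many CpG-rich promoters serve a pair of genes that start back to back on opposite strands. A RefSeq window of an opposite-strand gene that overlapped head to head was found for 183 of 590 genes with a CpG-rich promoter peak (31.0%, interval 27.3 to 34.9) and 28 of 144 with a CpG-poor one (19.4%, interval 13.3 to 26.9), against 19.8% of 15141 protein-coding genes without a promoter peak. With both partners protein-coding it was 90 of 570 (15.8%, interval 12.9 to 19.05) at CpG-rich peaks, 7 of 132 (5.30%, interval 2.16 to 10.6) at CpG-poor peaks and 10.997% at genes without a promoter peak. Neither comparison was matched for the CpG content of the windows. The 590 and 144 genes were of every kind, whereas the 15141 were protein-coding only. The median score of the CpG-rich peaks was 171 with such a partner (n = 90) and 164 without (n = 502).

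The table names 1 gene for each peak, so a shared promoter can stand under either name. Of the 90, 18 were named for a gene of the mitochondrial lists, among them HSPD1, which shares its promoter with HSPE1, its cochaperonin. A further 5 had such a gene only as the partner: RNF113A (score 658) beside NDUFA1, GABPA (510) beside ATP5PF, KBTBD4 (376) beside NDUFS3, LNP1 (158) beside TOMM70 and WDR77 (98.8) beside ATP5PB. GABPA is itself an ETS factor known to regulate respiratory genes. SH2B1, the third by score, stands back to back with TUFM, the mitochondrial elongation factor, which also had a CpG-rich peak of its own with a score of 86.9. COQ9 is paired with CIAPIN1, and COX4I1 with EMC8.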

How the data were processed

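The submitters' processing notes name BWA 0.5.9, MACS 1.4.1, HOMER 3.18 and hg19; the role of each, the threshold for peaks and any pooling of libraries are not given there. The deposited table, per its file headers, has position, a peak score, the nearest TSS, an annotation, a conservation score, and CpG and GC content. The deposited CpG and GC values are fractions per base, although the headers name percentages. Read depth is unknown, and no column of another sample was used (0). Width was end minus start plus 1. With Python 3.11.15, pandas 2.3.3, NumPy 2.4.6 and SciPy 1.17.1, medians, shares and rank correlations were computed. The share of pairs with the CpG-rich peak higher was checked on scores drawn at random from the promoter peaks. The search for the extended ERR element was checked on random sequences with planted sites. The other quantities were not checked in this way. Of the 716 peaks, 714 matched a RefSeq gene (GRCh38.p14), whose names, biotypes and 300-base promoter windows were used without its coordinates being set beside those of the peaks. Some genes have several windows.

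The peaks of interest, the lists and the alternatives were chosen with earlier results of these data known. Named genes were the 10 highest scores, the extremes of CpG, width, score and conservation, the peaks next to the CpG minimum, up to 4 genes per list, the 5 highest CpG-poor peaks, and up to 6 and 2 genes with TCAAGGTCA; further genes were chosen after their values were seen, and a gene that the rule selects is not reported here. No test between groups was made, as no value per library exists.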

Additional observations from a re-analysis of the deposited data

How the results depend on the processing

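Over 96 alternatives, 84 values kept within the interval of the value reported, or within 1.5 times for counts, and 12 moved. The interval of the reported difference held 0 for the median score, the median width and the median conservation, so none of these has a set direction. For conservation the difference was 0.02 and 0 was the lower end of its interval (0 to 0.05). Under the alternatives this interval went below 0 in some cases and lay wholly above 0 in others. The score difference changed sign under 1 alternative and the width difference under 5. The values of the GC and conservation differences kept their sign under every alternative run. With the upper 50% of the list by score there were 471 CpG-rich promoter peaks, and with the upper 10% 139. In the upper 10% the difference of the median scores, CpG-rich minus CpG-poor, was -95.6, the width differed by -355 bp, 47.5% of CpG-rich peaks were downstream of the start, 27.3% were on the lists and 1.86% of their windows held the extended ERR element. The share on the lists was 21.9% within 500 bp of the start, 14.9% for widths of 800 to 1600 bp, and 18.4% with ATP5MJ, ATP5MK and COXFA4 also counted, an alternative chosen after seeing the data. The ERR element share was 7.88% with the core in place of the extended element, and 10.7% counted over genes, likewise chosen after seeing the data. With protein-coding partners only, the share of head-to-head promoters was 15.8%. The cause of these shifts was not tested, except that the upper 10% holds fewer peaks by construction. No paired analysis was possible because the 2 ERRg_ChIP libraries were merged into 1 list with no value for each, and leaving out a replicate was not possible for the same reason.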
